A study of Mus musculus with 4 samples.

Results

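Expression of genes of Kupffer cells and other macrophages was examined in liver RNA-Seq of FVB/N mice fed diets that differed in selenium (Se). The livers came from 2 mice on the 0 Se diet (no Se added) and 2 mice on the 0.1 Se diet (0.1 ppm Se added as sodium selenite). All 4 were wild-type males that received their torula yeast-based diet from weaning for 6 weeks. Total RNA was isolated from pieces of liver tissue, and ribosomal RNA was removed before libraries were made. Because the tissue was taken as a whole, the levels describe whole liver. Fewer cells of a type and less RNA per cell cannot be told apart in it. The genes were a list of 35 symbols chosen by function, and 29 of them were found by symbol among the 7000 genes of the authors' gene table. Another, Spi1, was listed under its older symbol Sfpi1, which gave 30 listed members. Cd68, Fcgr2b, Laptm5, Lyz1 and Lyz2 were not listed.

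For each gene the table gives 1 mean level over all 4 libraries, in CPM, the reads of the gene scaled to a fixed library total, together with the length of its mRNA. These means belong to the authors and join both diets, so no value can be given for a single mouse, no spread accompanies any level, and the diets were not compared here. The depth of the libraries is unknown. Levels of different genes were compared as CPM per kilobase of mRNA, since a longer mRNA yields more reads at the same number of molecules. The median of all 7000 listed genes was 6.19 CPM per kilobase, the lower quartile 2.09 and the upper quartile 18.0. A difference in level between genes is described below by its size, and none was tested.

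Kupffer cells are the resident macrophages of the liver. They line the sinusoids, take up bacteria, complement-coated particles, aged red cells and cell debris from portal blood, and carry surface receptors that few other macrophages express. Like many macrophages they depend on the receptor of colony stimulating factor 1 and on the transcription factor PU.1. They hold Fc receptors, lysosomal proteins and a phagocyte oxidase that are shared with other myeloid cells. In the account that follows, 8 genes stand for resident Kupffer cells, 4 for complement proteins made by macrophages, and 23 for general macrophage, myeloid and leukocyte functions.

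Among the resident markers, Clec4f and Cd5l had the highest levels. Clec4f encodes a C-type lectin of Kupffer cells and spans bases 83594536 to 83606181 of chromosome 6 in NCBIM37, the assembly also named mm9, with 7 exons. Its mean was 180 CPM, or 74.8 CPM per kilobase, above 91.8% of the listed genes. Cd5l, a secreted scavenger protein that protects macrophages from apoptosis, lies on chromosome 3 from 87161803 to 87174996. Its mean was 150 CPM, or 73.7 CPM per kilobase, so that the level of Clec4f was 1.02 times that of Cd5l. These were also the highest levels per kilobase of all 30 listed members.

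Vsig4 and Fcna came next among the resident markers. Vsig4, the complement receptor by which Kupffer cells capture opsonized particles, lies on chromosome X from 93442542 to 93488777 and had a mean of 52.7 CPM, or 36.8 CPM per kilobase. Fcna, ficolin A, is a soluble lectin that starts the lectin pathway of complement. It had a mean of 36.5 CPM, or 27.7 CPM per kilobase. Both levels were above the upper quartile of the listed genes, as were those of Clec4f and Cd5l.

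The 4 other resident markers had lower levels. Folr2, the folate receptor beta of tissue macrophages, had 7.34 CPM per kilobase, and Timd4, a receptor for phosphatidylserine on apoptotic cells, had 6.20. Folr2 was 1.18 times the median of all listed genes, and Timd4 lay at that median. Marco, a scavenger receptor for bacteria, lies on chromosome 1 from 122371115 to 122401661 and had 5.15 CPM per kilobase, so that Vsig4 stood at 7.15 times its level. Cd163, the receptor for haptoglobin-hemoglobin complexes, had the lowest level of the group with 1.56 CPM per kilobase, above 19.4% of the listed genes. The resident group thus spanned a 47.9-fold range from Cd163 to Clec4f, and 6 of its 8 genes were above the median of all listed genes.

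**Figure D1:**
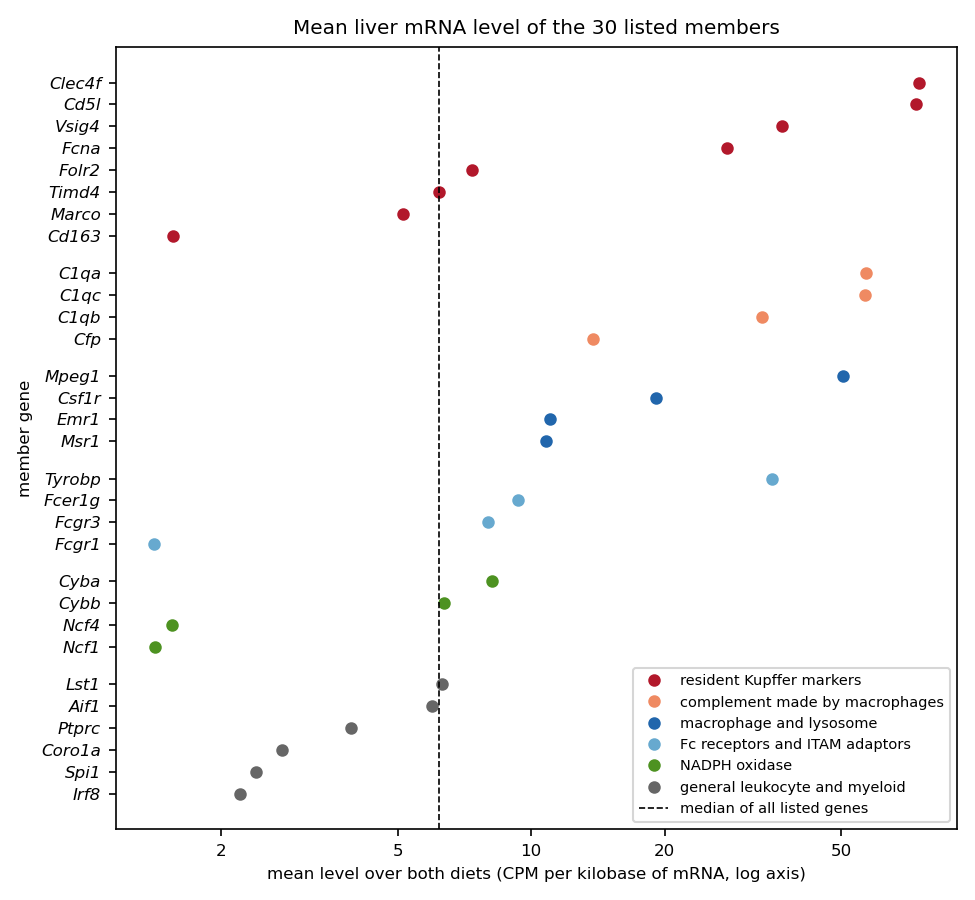
Mean level of each of the 30 listed members in CPM per kilobase of mRNA on a log axis, with 1 point for the authors' mean over both diets and colors for the 6 functional groups. The dashed line is the median of all listed genes, 6.19, and the points run from 1.41 for Fcgr1 to 74.8 for Clec4f.

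The 3 chains of C1q, the recognition protein of the classical complement pathway, were all above the upper quartile of the listed genes. Macrophages are the main source of C1q, and each molecule contains the A, B and C chains in equal number. C1qa had 57.0 CPM per kilobase, C1qc 56.7 and C1qb 33.1. C1qa and C1qc were thus level, and C1qa stood at 1.72 times the level of C1qb. The 3 genes lie together on the minus strand of chromosome 4, C1qb from 136436044 to 136442102, C1qc from 136445719 to 136448980 and C1qa from 136451832 to 136454718. Only 3616 bases separate C1qb from C1qc, and 2851 bases separate C1qc from C1qa. Their mRNAs have 1061, 1054 and 1082 bases in the order C1qb, C1qc and C1qa, so the lower level of C1qb was also seen without correction for length, at 35.2 CPM against 59.8 and 61.6. Their coding sequences were from 54.6% to 56.9% identical in pairwise alignment. No window of 50 bases of any of the 3 mRNAs matched the mRNA of another gene with up to 2 mismatches. Cfp, properdin, which stabilizes the convertase of the alternative pathway, had 13.8 CPM per kilobase. C1qa stood at 4.12 times its level.

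In the group of macrophage and lysosome genes, which are not specific to the liver, Mpeg1 had the highest level of the 4 listed. It encodes perforin-2, a pore-forming protein of phagosomes, and lies on chromosome 19 from 12535269 to 12539774, with 2 exons. Its mean of 219 CPM was the highest of all members, whereas its level of 50.6 CPM per kilobase was the 5th highest, since its mRNA has 4336 bases. Csf1r, the receptor for colony stimulating factor 1 and interleukin 34, had 74.1 CPM, or 19.1 CPM per kilobase. Emr1, the adhesion receptor recognized by the classical macrophage antibody, had 11.0 CPM per kilobase, and Msr1, scavenger receptor A, had 10.8. All 4 were above the median of the listed genes. The level of Clec4f was 6.81 times that of Emr1, and that of Msr1 was 2.10 times that of Marco.

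Cd68, Lyz1 and Lyz2 belong to the same group, and no level can be given for them. A gene that is not in the table was either not tested by the authors or had a p-value above those listed, since the rows are in ascending order of p and end at 7000 genes. Lyz1 and Lyz2 encode the P and M lysozymes and are 5474 bases apart on chromosome 10. The authors counted only reads that aligned to a single mRNA with up to 2 mismatches, and for this pair most reads of 50 bases would align to both. Of the 1215 windows of 50 bases in the Lyz1 mRNA, 766 (63.0%) matched the Lyz2 mRNA with up to 2 mismatches. In the Lyz2 mRNA the same number was 60.6% of 1264 windows. The remaining windows, 37.0% for Lyz1 and 39.4% for Lyz2, matched no other mRNA. Whether shared reads bear on the absence of these genes was not tested. Cd68, with no shared window, was not listed either. The coding sequences of Lyz1 and Lyz2, of 447 bases each, were 95.1% identical. Below, the first 50 coding bases of each gene show a stretch where a read would align to both within 2 mismatches, and coding bases 77 to 126 show a stretch that differs at 8 positions, both from exon 1 and the minus strand of NCBIM37. Capitals mark the bases that differ between the genes.
Lyz1, chr10:116729845-116729894, shared stretch: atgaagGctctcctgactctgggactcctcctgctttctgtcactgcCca
Lyz2, chr10:116719249-116719298, shared stretch: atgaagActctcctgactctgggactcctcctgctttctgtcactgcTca
Lyz1, chr10:116729769-116729818, distinct stretch: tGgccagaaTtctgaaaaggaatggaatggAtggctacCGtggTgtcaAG
Lyz2, chr10:116719173-116719222, distinct stretch: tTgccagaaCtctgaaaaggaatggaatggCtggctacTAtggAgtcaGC

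**Figure D2:**
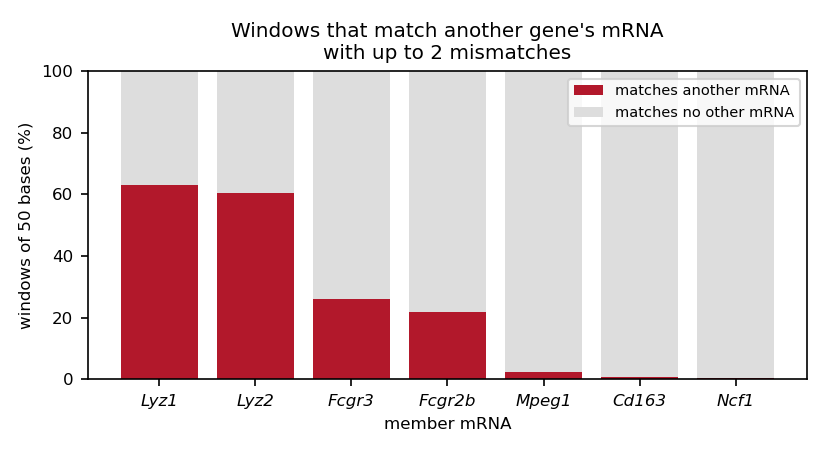
Share of the windows of 50 bases of a member mRNA, in percent, that matched the mRNA of another gene with up to 2 mismatches (red) or matched none (grey), for the 7 members with any such window. The bars of Lyz1 and Lyz2 reach 63.0% and 60.6%, those of Fcgr3 and Fcgr2b 26.0% and 21.8%, and the other 3 stay at or under 2.33%.

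Fc receptors bind the constant part of antibodies, and several of them signal through small adaptor chains with an activation motif (ITAM). Tyrobp, the adaptor DAP12, had the highest level of this group with 34.9 CPM per kilobase. Fcer1g, the common Fc receptor gamma chain, had 9.32, so that Tyrobp stood at 3.75 times its level. Fcgr3, a low-affinity activating receptor, had 8.01 CPM per kilobase, and Fcgr1, the high-affinity receptor, had 1.41, the lowest value of all listed members. The level of Fcgr3 was 5.68 times that of Fcgr1. Fcgr2b, the inhibitory receptor, was not listed. It is also known to be expressed by sinusoidal endothelial cells of the liver.

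Fcgr2b, Fcgr3 and Fcer1g lie on chromosome 1, Fcgr2b from 172890689 to 172906678, Fcgr3 from 172981300 to 172995066 and Fcer1g from 173159703 to 173164496. Of the windows of the Fcgr3 mRNA, 338 (26.0%) matched the Fcgr2b mRNA, and the same number was 21.8% of the windows of Fcgr2b. With the shared windows left out of the length, the level of Fcgr3 was 10.8 CPM per kilobase. A stretch from exon 3 of each gene, on the minus strand of NCBIM37, shows where a read would align to both within 2 mismatches, with the bases that differ in capitals.
Fcgr3, chr1:172987954-172988003: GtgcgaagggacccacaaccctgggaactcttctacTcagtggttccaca
Fcgr2b, chr1:172898243-172898292: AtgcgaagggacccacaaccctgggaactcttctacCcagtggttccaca

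The phagocyte NADPH oxidase makes superoxide at the phagosome membrane from a membrane-bound pair of subunits and several cytosolic ones. The membrane subunits had the higher levels. Cyba had 8.14 CPM per kilobase and Cybb, the catalytic subunit, had 6.37, a ratio of 1.28. The cytosolic organizer Ncf1 had 1.42 and Ncf4 had 1.55 CPM per kilobase, so that Cybb stood at 4.48 times the level of Ncf1. Correction for length decides the order of the membrane subunits. The Cybb mRNA has 4752 bases and the Cyba mRNA 759, and without correction Cybb had 30.3 CPM against 6.18 CPM of Cyba. Cyba is expressed in many cell types besides phagocytes.

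The 6 listed genes of leukocytes in general had levels between the lower quartile of all listed genes, 2.09 CPM per kilobase, and just above their median, 6.19. Lst1, a leukocyte-specific transcript, had 6.31 CPM per kilobase and Aif1, an actin-binding protein of macrophages, 5.98. Ptprc, the CD45 phosphatase of all leukocytes, had 3.93, and Coro1a, coronin 1A, had 2.75. The 2 transcription factors of the list had 2.40 CPM per kilobase for Spi1 (PU.1) and 2.21 for Irf8, which directs macrophage and dendritic cell fates. Their order depends on length, since Spi1 had 3.20 CPM and Irf8 6.26 CPM, and the listed length of Spi1, 1333 bases, differed in proportion more than that of any other listed member from the transcript matched to it, which has 2034 bases. Of the 6 listed genes of this group only Lst1 was above the median of all listed genes, by a factor of 1.02. Laptm5, a lysosomal membrane protein of leukocytes, was not listed.

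Resident Kupffer markers were then set against general myeloid genes. The 8 resident markers, all listed, had a median of 17.5 CPM per kilobase. The 18 listed genes of the 23 general ones had a median of 6.34, close to the 6.19 of all listed genes, and the ratio of the medians was 2.76. Above the median of all listed genes were 6 of 8 resident markers (75.0%) and 10 of 18 general genes (55.6%). Above the upper quartile were 4 of the 8 and 3 of the 18, the latter being Mpeg1, Tyrobp and Csf1r. The ranges overlapped, from 1.56 to 74.8 CPM per kilobase for the resident and from 1.41 to 50.6 for the general genes. The median of the 8 lies midway between Fcna and Folr2, so the ratio depends on how many genes stand on each side of that gap. Without Clec4f and Cd5l it was 1.07, and leaving out any other pair of the 4 highest markers gives the same median. With the C1q chains counted as resident markers, it was 5.22. The contrast rests on which genes are in the table and on no replicate, and it was not tested.

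**Figure D3:**
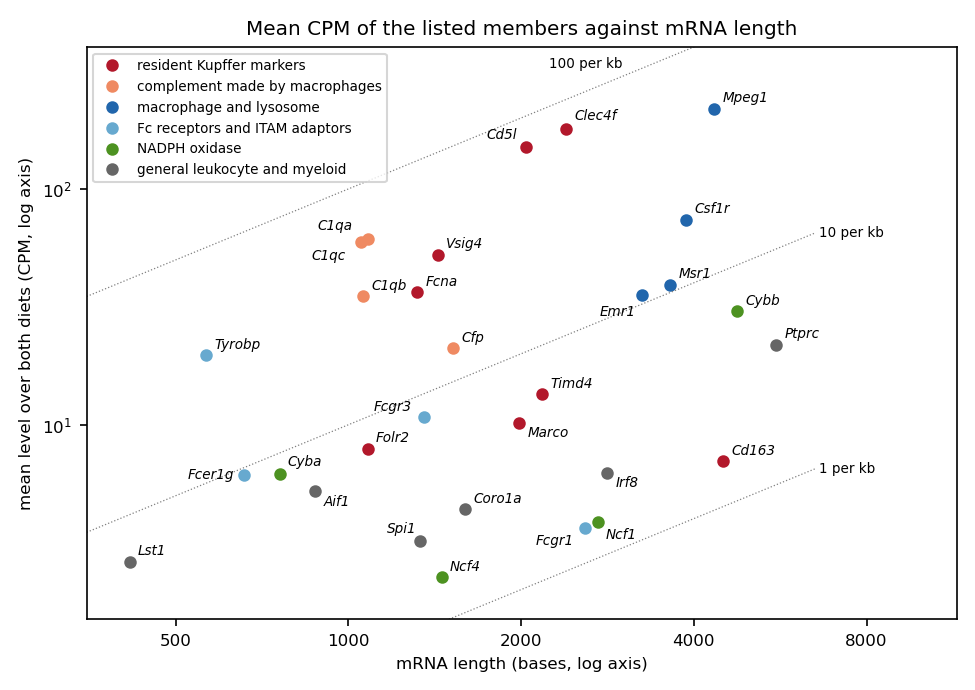
Mean CPM over both diets (log axis) against mRNA length in bases (log axis) for the 30 listed members, with dotted lines of equal level per kilobase at 1, 10 and 100. Mpeg1 lies highest at 219 CPM but below the C1q chains C1qa and C1qc in level per kilobase, and Tyrobp, with 566 bases, lies far to the left of Ptprc, with 5568 bases, at slightly lower CPM, which gives it the higher level per kilobase.

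Length changed the order of several other members. Tyrobp and Ptprc had similar means, 19.8 and 21.9 CPM, whereas their levels per kilobase were 34.9 and 3.93. Lst1, whose mRNA has 416 bases, was 29th of the 30 in CPM and 19th per kilobase. Cybb was 12th in CPM and 18th per kilobase. Members above the median of all listed genes numbered 20 of 30 per kilobase and 15 of 30 in CPM.

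The members were set beside markers of the other cells of the liver, chosen from general knowledge. Of 10 hepatocyte markers 6 were listed, from Pck1 with 799 CPM per kilobase to Apoa1 with 7619 and Trf, transferrin, with 8801. Alb, Ttr, Cps1 and Ass1, which hepatocytes express at high levels, were not listed, so a gene missing from the table is not shown to be low. The 30 listed members together made up 0.174% of the summed CPM of the listed genes, against 7.64% for the 6 hepatocyte genes. Of 12 markers of sinusoidal endothelial cells 7 were listed, with a median of 9.27 CPM per kilobase. Their highest were Clec4g (76.9) and Stab2 (16.4), and their lowest was Flt4 (6.23). Clec4f and Clec4g, lectins of the Kupffer and the endothelial cell, had a ratio of 0.973. Of 10 stellate cell markers 9 were listed, with a median of 11.1, the highest being Dcn (98.3) and Colec11 (24.7) and the lowest Col1a1 (1.03). Spp1 (16.5) was the 1 listed of 5 cholangiocyte markers.

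Few markers of other leukocytes were listed. As for the hepatocyte markers, absence does not show a low level, since genes with the largest p-values were not listed either. Of 9 neutrophil markers S100a9 (3.41 CPM per kilobase) and S100a8 (2.48) were listed, and of 14 lymphocyte markers Gzma (1.31) and Cd4 (0.782). The means of these genes ran from 0.970 CPM for S100a8 to 2.42 CPM for Cd4, and the lowest mean of all listed genes was 0.830 CPM. Of 6 markers of recruited monocytes, Plac8 had 7.89 and Ccr2, the chemokine receptor of monocytes that enter tissue, 0.910. None of 8 dendritic cell markers was listed. The level of Csf1r was 21.0 times that of Ccr2, the lower of the listed monocyte markers. The level of Clec4f, the highest member per kilobase, was 19.1 times that of Ptprc. Other pairs differed. Plac8 was above the resident markers Folr2 (7.34), Timd4 (6.20), Marco (5.15) and Cd163 (1.56). It was below Clec4f, Cd5l, Vsig4 and Fcna. Cd163 was the only resident marker below Ptprc (3.93). The part of other leukocytes in the levels of the general myeloid genes was not tested.

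**Figure D4:**
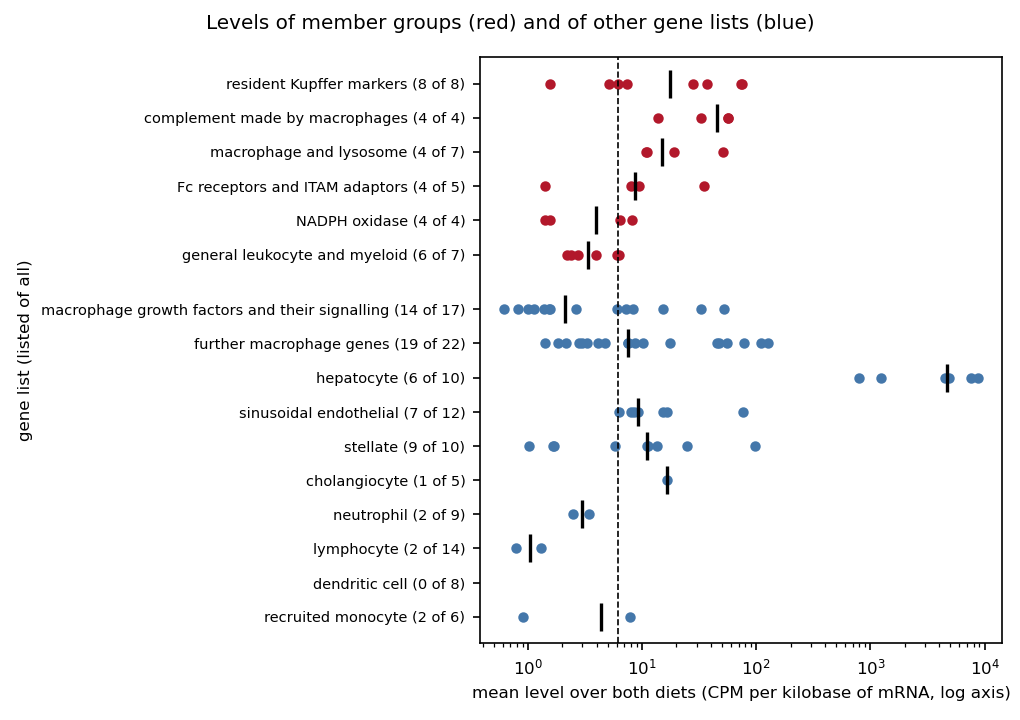
Mean level over both diets in CPM per kilobase of mRNA (log axis) of the listed genes of each member group (red) and of 10 other gene lists (blue), with the number listed of all in parentheses. Black ticks are medians and the dashed line is the median of all listed genes, and the hepatocyte genes, at 799 and above, lie far to the right of all members.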

How the data were processed

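Liver libraries were made by the authors from total RNA depleted of ribosomal RNA with a stranded kit and read in single-end runs. The authors removed remaining ribosomal reads, aligned the rest with Bowtie to RefSeq mRNAs of mm9 (the longest isoform of each gene, unique alignments, up to 2 mismatches), and ran edgeR on genes above 1 CPM in at least 3 samples. The sources used here do not name the method of library normalization. The deposited table holds the log2 of the mean CPM of each gene over the 4 libraries and the mRNA length, and both were used. Its other columns, a log2 fold change, a p-value and an FDR, are the authors' own comparison of the diets and were not used, except that the order of the rows by p was checked. The number of columns for a single mouse is 0, so no test, replicate error or omission of a mouse could be made.

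CPM was taken as 2 to the power of the deposited value and divided by length in kilobases. The deposited log2 mean, as the authors' edgeR computes it, includes a small added count, which raises low levels slightly. Genes were matched by symbol, then by older RefSeq symbols. Coordinates, exons and sequences come from GENCODE vM1 on NCBIM37, the assembly of mm9. All 35 members were matched to it, and for 28 of the 30 listed members the chosen transcript was within 10% of the listed length. Windows of 50 bases were compared on both strands with the longest coding transcript of 20380 other genes, a stand-in for the authors' mRNA set, by a search tested on simulated sequences. Protein identity was planned and could not be run, and coding sequences were aligned instead. All members were named, and of each other list the 2 highest genes and the lowest, with Alb, Ttr, Cps1, Ass1 and other unlisted genes named after their absence was seen. The members and lists were chosen with earlier results of these data known. Python 3.11.15, numpy 2.4.6, pandas 2.3.3, Biopython 1.88 and matplotlib 3.10.9 were used.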

Additional observations from a re-analysis of the deposited data

How the results depend on the processing

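The ratio of the resident to the general myeloid median, 2.76 as reported, was 2.76 with uniquely alignable windows. A minimum mean of 1 CPM removed no listed member, the lowest being 2.26 CPM, and so could not change it. The ratio was 4.02 in CPM with no length correction and 5.22 with the C1q chains counted as resident. It was 2.75 without Ptprc, Coro1a and Cyba, set aside as known from lymphocytes or endothelium. Laptm5 and Fcgr2b, also set aside, were not listed. The genes kept were not checked for expression in those cells. In settings chosen after seeing the data, the ratio was 2.75 with genes listed under their own symbol only. Without Clec4f and Cd5l it was 1.07, a value that follows from removing any pair of the 4 highest resident markers. In CPM the resident median was 25.0 and the general median 6.22. The count of members in the upper part of the listed genes was 20 per kilobase and 15 in CPM. Of the 30 member levels, 26 were the same and 4 rose when shared windows were left out of the length. Low levels are the least certain, and with no counts or depth their error is unknown. Because genes with the largest p-values are not in the table, medians over listed genes describe that selection.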

Other observations

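Further macrophage genes from a list written from general knowledge were also present. Of 22 such genes 19 were listed, with a median of 7.48 CPM per kilobase, and 11 were above the median of all listed genes. The highest were Cd74 (127 CPM per kilobase), the invariant chain of MHC class II, and H2-Aa (110), a class II alpha chain. These are levels of whole liver, and the part of other cell types in them was not tested. The lowest was Cd14 (1.42), the co-receptor for lipopolysaccharide. Itgam, Ms4a7 and Hpgd were not listed.

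Of 17 genes for growth factors, kinases and transcription factors of macrophages 14 were listed, with a median of 2.10 CPM per kilobase, and 5 were above the median of all listed genes. Nr1h3 (52.5), the liver X receptor alpha, and Id3 (32.7), a regulator of Kupffer cell identity, were the highest. Nr1h3 is also expressed by hepatocytes. Il34, a ligand of Csf1r, was the lowest at 0.614, and the level of Csf1r was 31.1 times that of this ligand. The mean of Il34 was 1.13 CPM, near the lowest of all listed genes, 0.830 CPM, so this ratio is uncertain. Csf1, the other ligand, was not listed, nor were Inpp5d and Btk.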
